A study of Macaca mulatta with 449 samples.

Results

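The 6 genes described here load glutamate or GABA into synaptic vesicles or make GABA. They were SLC17A6 (ENSMMUG00000020368), SLC17A7 (ENSMMUG00000014800) and SLC17A8 (ENSMMUG00000017646), which encode the vesicular glutamate transporters, SLC32A1 (ENSMMUG00000003376), which encodes the vesicular GABA transporter, and GAD1 (ENSMMUG00000015198) and GAD2 (ENSMMUG00000012233), which encode the glutamate decarboxylases. They were chosen by symbol and make up 6 of the 30807 genes counted. Each gene was followed across 51 sub-regions of the brain of 8 rhesus macaques, with 1 RNA library for each sub-region and animal, to ask how the glutamate and GABA machinery is laid out across the brain of this monkey.

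The animals carried no transgene or treatment that the labels name. Rhesus 2 and Rhesus 3 were mid-aged males of 10 years, Rhesus 6 a mid-aged female of 10 years and Rhesus 11 a mid-aged female of 9.8 years. Rhesus 7 and Rhesus 8 were young males of 4 and 3.8 years, and Rhesus 4 and Rhesus 10 young females of 3.2 and 5 years. A replicate here is therefore an animal, and every sub-region was sampled in all 8 of them. Sub-regions were pieces of dissected tissue, so each library holds RNA of neurons and glia together. In such bulk tissue, fewer cells of a type and less RNA per cell cannot be told apart.

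As background, neurons that release glutamate package it with a vesicular glutamate transporter. SLC17A7 (VGLUT1) is known as the transporter of cortical, hippocampal and cerebellar granule neurons, and SLC17A6 (VGLUT2) as that of thalamic, hypothalamic and brainstem neurons. SLC17A8 (VGLUT3) is found in sparse neurons whose main transmitter is often another one, such as the cholinergic interneurons of the striatum and serotonergic neurons. GABA is made from glutamate by GAD67, the product of GAD1, and GAD65, the product of GAD2. It is packaged by VGAT, the product of SLC32A1, which also carries glycine in the inhibitory neurons of the brainstem and spinal cord. The projection neurons of the striatum, the granule cells of the olfactory bulb and the Purkinje cells of the cerebellum are well known GABA neurons.

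The 51 sub-regions were joined into 16 region groups. The cerebral cortex held 31 sub-regions, and the hippocampal formation (HIP) held the dentate gyrus (DG), CA1 and CA3. The striatum (STR) held the accumbens nucleus (ACb), caudate nucleus (CN) and putamen (PUT), and the cerebellum (CB) held the cerebellar cortex (CBC) and vermis (CBV). The amygdala (AMY), the olfactory bulb (OB), the joined entorhinal and perirhinal cortex (PA), globus pallidus (GP), corpus callosum (CC), thalamus (THA), hypothalamus (HTHA), ventral tegmental area (VTA), substantia nigra (SN), pons (PON), medulla oblongata (MO) and pituitary (PIT) were a group each. Levels are CPM, read counts set relative to the library total after scaling by the trimmed mean of M-values (TMM), with the counts of a group summed within each animal. No gene length was at hand, so a level is compared between regions and never between genes.

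Libraries held 7784678 to 31083490 counts (median 10698602). The tissue labels could be checked where a marker list existed. The anterior pituitary list averaged 12.2 on the log2(CPM + 1) scale in PIT and at most 1.77 in any other group, and the granule cell marker GABRA6 lay between 710 and 1241 CPM in the CBC libraries. The myelin gene MBP was at least 49118 CPM in every CC library. Libraries were taken to stand apart where the neuronal or the cortical list lay past Dixon's limit for the 8 animals of a sub-region outside the cortex with a gap of at least 1 on the log2 scale, which held for 4 libraries. Lists of other cell types also passed this limit in some libraries (among them anterior pituitary genes in MO and CBC of Rhesus 11 and granule cell genes in GP of Rhesus 3), which were kept throughout. The 10 neuronal markers averaged 5.44 in the MO of Rhesus 6 against a median of 9.01. A list of cortical markers, TBR1 among them, averaged 5.41 against 2.11 in the HTHA of Rhesus 6, 4.47 against 0.79 in the ACb of Rhesus 10 and 3.73 against 0.76 in the PUT of Rhesus 3. The main results that move with these 4 libraries are given with and without them, and the MO fold changes without them stand near the end.

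The members varied over the brain by orders of magnitude. All 6 passed the edgeR quasi-likelihood F test over the 51 sub-regions (largest false discovery rate, FDR, 1.5e-112), as did 99.5% of the 17121 genes tested, so passing sets the members apart from nothing. Against the cortex, a gene was called different at an FDR under 0.05 and more than 2-fold. Of 90 pairs of member and region group, 56 were called, 22 with the higher level outside the cortex and 34 with the higher level in the cortex. SLC17A6 was called in 14 of 15 groups, SLC17A8 in 12, SLC17A7 in 10, GAD1 in 8, GAD2 in 7 and SLC32A1 in 5.

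The share of members called can be read against the share of all 16829 genes called in the same contrast. In PIT and CC all 6 members were called, against 44.7% and 44.2% of all genes. In HIP and STR 5 of 6 were called against 12.4% and 16.9%, and in OB and MO 5 of 6 against 22.5% and 28.3%. In PON and SN 4 of 6 were called against 24.9% and 28%. THA, HTHA, VTA and GP had 3 of 6 called, against 19.7%, 18.6%, 28.3% and 34.8%. In CB 2 of 6 were called against 25.7%, close to the background. AMY and PA had 1 of 6 called against 9.54% and 8.92%, each a count of a single gene.

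**Figure D1:**
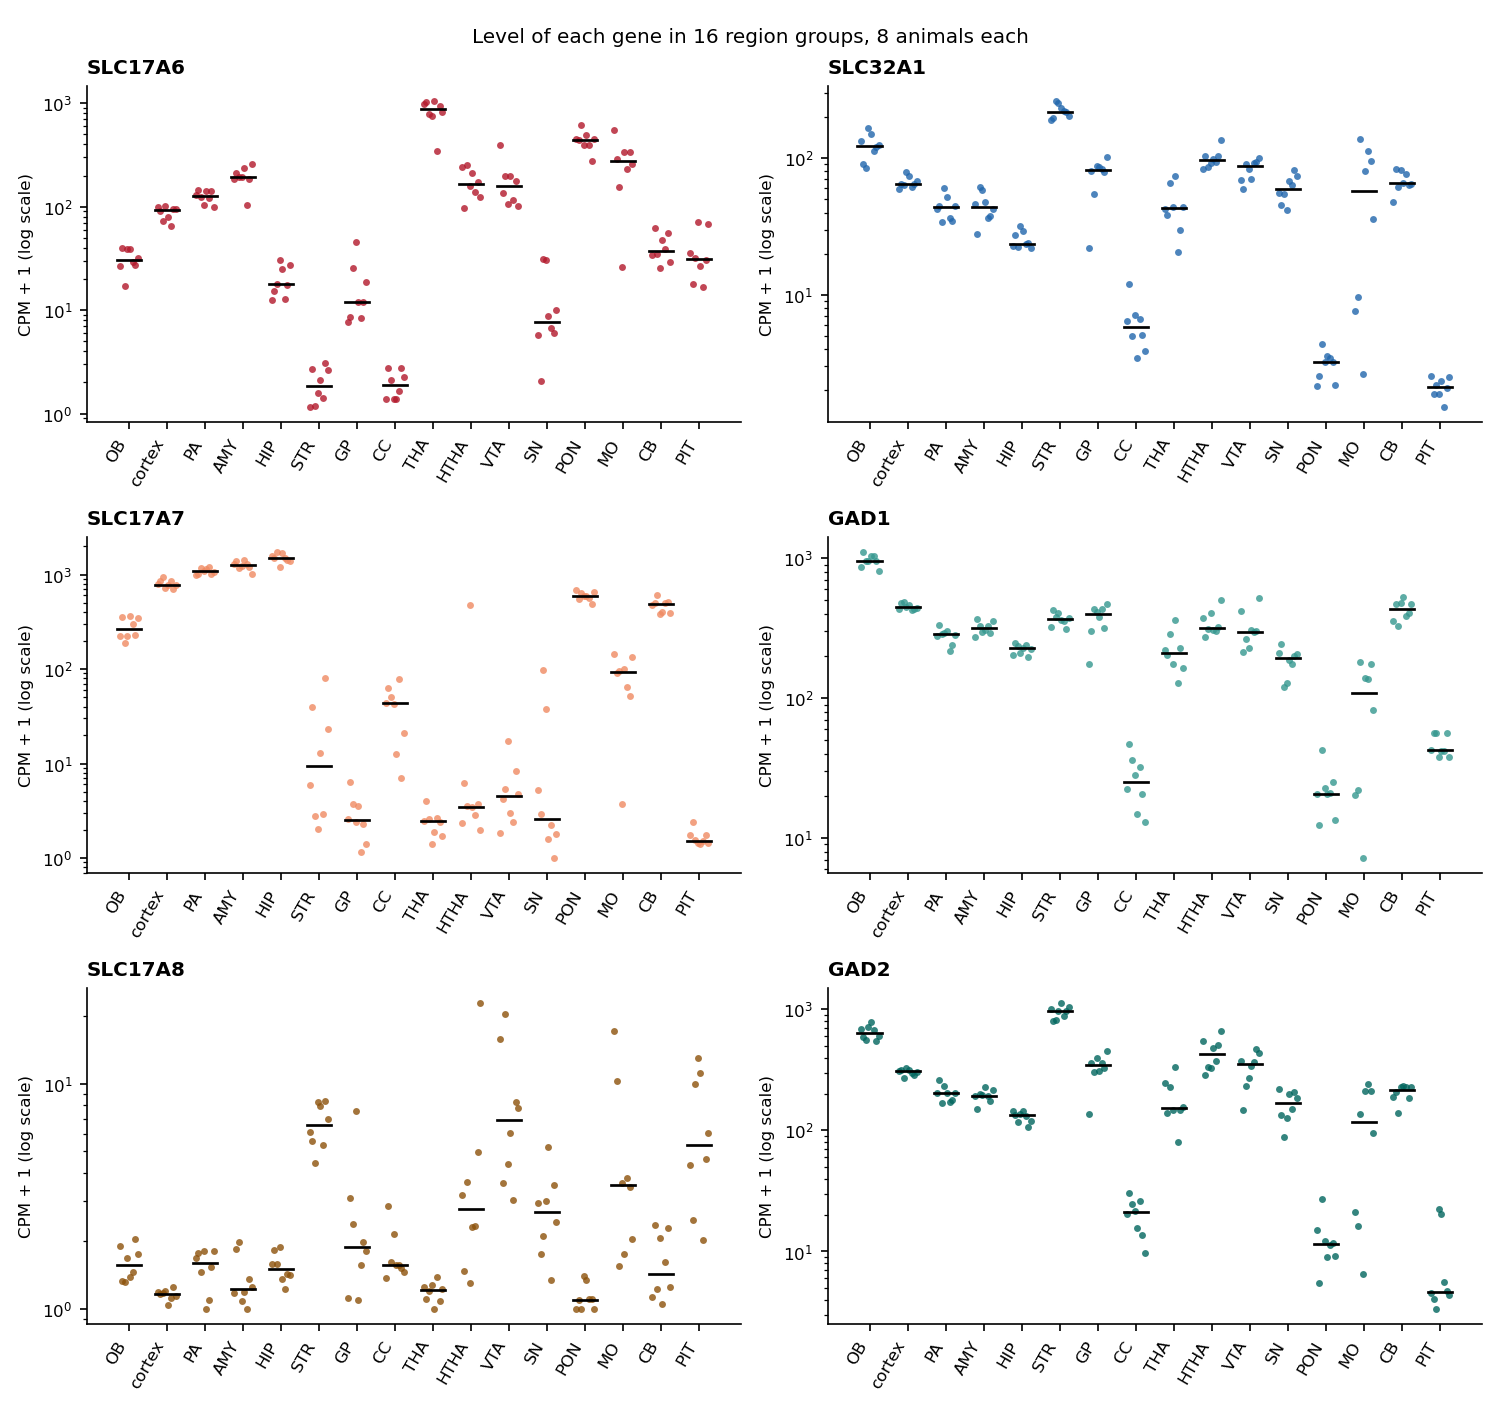
Level of each of the 6 genes (CPM + 1, log axis) in 16 region groups, with a point for each of the 8 animals and a black bar at their median. SLC17A6 peaks in THA and PON, SLC17A7 in HIP and AMY, the 3 GABA genes in STR or OB, and single animals stand off in MO, HTHA, SN and GP.

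SLC17A6, the transporter of subcortical glutamate neurons, was highest in the thalamus. Its THA level averaged 837 CPM ± 229 (SD, n = 8), with a lowest value of 343 CPM in Rhesus 8, a median of 883 and a highest value of 1045. The cortex averaged 86.5 ± 13.3 CPM and reached 101 CPM at most, so every thalamic library lay above every cortical sum. The THA difference was a log2 fold change (log2FC) of 3.25 (SE 0.34, FDR 7.2e-15, edgeR). Of the 15 groups, 6 were called higher than the cortex and 8 lower. The cortex is a sum over 31 sub-regions, whose own means ran from 10.0 to 191 CPM. The means of VTA, HTHA, CB, PIT, OB, HIP, GP and SN, all called, lay inside that range.

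Behind the thalamus came the brainstem and a set of ventral structures. PON held 440 ± 96.3 CPM (278 to 617, log2FC 2.36) and did not overlap the cortex. MO held 274 ± 154 CPM (log2FC 1.69), where 7 animals lay between 155 and 556 CPM and Rhesus 6, whose neuronal markers were low, at 24.9. AMY held 195 ± 45.6 CPM (103 to 258, log2FC 1.16). VTA held 177 ± 95.0 CPM, where Rhesus 2 stood at 391 and the others between 102 and 198, and its log2FC of 1.03 was just over the 2-fold line. HTHA held 173 ± 55.9 CPM (95.5 to 252, log2FC 1.00) and overlapped the cortex, and it was not called under the looser count filter (log2FC 0.89). The VTA call was lost without the HTHA library of Rhesus 6 in the fit (log2FC 0.99), since the value then fell under 2-fold, and so was it without all 4 libraries that stand apart (log2FC 0.99). PA, at 125 ± 17.4 CPM, did not pass (log2FC 0.55, FDR 0.17).

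At the other end, SLC17A6 was nearly absent from striatum and corpus callosum. STR held 0.979 ± 0.750 CPM (0.157 to 2.09, log2FC -6.45) and CC 0.965 ± 0.598 CPM (0.377 to 1.77, log2FC -6.47). In STR the summed counts behind these values were 4 to 61 in an animal, and without the 2 striatal libraries that stand apart the log2FC was -7.10. SN held 11.6 ± 11.5 CPM, with Rhesus 4 and Rhesus 6 near 30 and the others at 9.01 or less (log2FC -2.96). GP held 16.3 ± 13 CPM (log2FC -2.46), HIP 18.9 ± 6.88 (log2FC -2.22), OB 30.3 ± 7.85 (log2FC -1.50), PIT 36.3 ± 20.8 (log2FC -1.31) and CB 40.1 ± 12.8 (log2FC -1.07), and all 5 were called lower. VTA and SN, which lie side by side in the ventral midbrain, were thus on opposite sides of the cortex taken as a whole.

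SLC17A7, the transporter of cortical and hippocampal principal neurons, was highest in the hippocampus and amygdala. HIP held 1499 ± 170 CPM (1190 to 1718), AMY 1247 ± 127 (1015 to 1417), PA 1086 ± 81.7 (981 to 1205) and the cortex 796 ± 74.7 (704 to 930). All animals of HIP, AMY and PA lay above all cortical sums, but none of the 3 was called: the log2FC was 0.93 for HIP (SE 0.62, FDR 0.22), 0.65 for AMY (FDR 0.43) and 0.45 for PA (FDR 0.61). All 16 groups share 1 estimate of the spread of a gene in this fit, the low groups with their uneven libraries included, and without the 4 libraries that stand apart the HIP difference was 0.90 (FDR 0.073). PON (592 ± 63.0 CPM, log2FC -0.42) and CB (468 ± 77.5 CPM, log2FC -0.77) did not pass either. In CB the gene is known from granule cells, and in PON from the pontine nuclei that project to the cerebellum.

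SLC17A7 was called lower in the other 10 groups, and higher in none. OB held 279 ± 70.0 CPM (189 to 363, log2FC -1.47, FDR 0.034), a call that DESeq2 did not make (adjusted p 0.051). MO held 84.6 ± 45.4 CPM (log2FC -3.12), and here again Rhesus 6 was lowest, at 2.77 CPM against 51.4 to 144 in the others. CC held 39.1 ± 25.2 CPM (5.95 to 78.3, log2FC -4.40). In VTA (4.90 ± 5.02 CPM, log2FC -7.60), GP (1.93 ± 1.63 CPM, log2FC -8.89), THA (1.39 ± 0.791 CPM, log2FC -9.27) and PIT (0.653 ± 0.328 CPM, log2FC -10.32) few counts were found, 6 to 28 in an animal in THA, 4 to 14 in PIT, 2 to 48 in GP and 7 to 157 in VTA, where Rhesus 6 was highest at 16.2 CPM.

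In HTHA, STR and SN the mean of SLC17A7 was made by single libraries. In HTHA Rhesus 6 held 479 CPM and the other 7 animals 0.965 to 5.17, and the same library held TBR1 at 46.2 CPM against 0.360 to 5.59 in the others. The log2FC of HTHA was -4.56 with it and -8.41 without the libraries that stand apart. In STR the mean of 20.1 ± 27 CPM (1.03 to 78.7, median 8.41) fell to 5.93 ± 7.71 without the ACb of Rhesus 10 and the PUT of Rhesus 3, and the log2FC moved from -5.25 to -7.06. In SN the mean of 17.7 ± 34.1 CPM rested on 96.5 CPM in Rhesus 4 and 36.6 in Rhesus 6, while the other 6 animals held 0 to 4.28 (log2FC -5.93). Of the cortical markers, TBR1 was at 0 and 0.0876 CPM in these 2 SN libraries (0 to 0.326 in the others), while NEUROD6 was at 1.96 and 4.21 CPM, the 2 highest of the 8 (0.109 to 1.16 in the others). SLC17A6 was also highest in the same 2 libraries. The source of these reads was not tested.

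SLC17A8, the transporter of sparse neurons that often release another transmitter, was by far the least counted member. It had no count in 113 libraries, 3 counts or fewer in 263 and 10 or more in 87. Its highest levels were in VTA (7.67 ± 6.23 CPM, 2.05 to 19.4), PIT (5.69 ± 4.12 CPM, 1.02 to 11.9) and STR (5.63 ± 1.48 CPM, 3.46 to 7.33). STR was the steadiest of the 3, with 97 to 237 summed counts in each animal. The cortex held 0.162 ± 0.0634 CPM, from 15 to 93 counts summed over 31 sub-regions. Against it the gene was called higher in 12 of 15 groups and lower in none, with log2FC of 5.53 in VTA, 5.17 in STR and 5.11 in PIT.

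MO (4.45 ± 5.46 CPM, log2FC 4.72) and HTHA (4.25 ± 7.16 CPM, log2FC 4.63) came next, each on uneven libraries. In MO Rhesus 2 and Rhesus 3 held 16.1 and 9.25 CPM and the other 6 animals 0.555 to 2.83. In HTHA Rhesus 11 held 21.7 CPM and the others 0.300 to 3.96. SN (1.79 CPM, log2FC 3.46), GP (1.57 CPM, log2FC 3.13), CC, CB, OB, HIP and PA were called too, with log2FC between 1.60 and 3.46 at mean levels of 0.519 to 1.79 CPM. The cortex of this comparison is a sum in which the temporal polar gyrus held 1.06 CPM and the insula 0.699. CC (0.765 CPM), CB (0.624), OB (0.612), HIP (0.539) and PA (0.519) lay below the temporal polar gyrus. The GP mean leaned on 6.57 CPM in Rhesus 6. The PA call (FDR 0.049) was lost under the looser count filter (FDR 0.078). AMY, THA and PON, where 0 to 11 counts were found in an animal, did not differ detectably from the cortex at this depth.

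SLC32A1, the vesicular GABA transporter, was highest in the striatum. STR held 221 ± 25.6 CPM (189 to 260), and all 8 striatal sums lay above all values of OB (122 ± 27.2 CPM, 84.4 to 164), which came next. The cortex held 66.1 ± 6.80 CPM (58.8 to 78.8). STR was called higher (log2FC 1.74, SE 0.28, FDR 7.7e-08), and OB passed the FDR at less than 2-fold (log2FC 0.89, FDR 0.0033). HTHA (98.6 ± 16.7 CPM), VTA (81.4 ± 14.5), GP (73.4 ± 24.8), CB (67.1 ± 12.1) and SN (59.7 ± 14.1) did not pass, with log2FC between -0.14 and 0.58. The difference of CB was 0.02 and turned sign under several settings.

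The groups with little SLC32A1 were called lower. HIP held 24.4 ± 3.6 CPM (21.1 to 30.6, log2FC -1.44), CC 5.20 ± 2.67 (log2FC -3.64), PON 2.10 ± 0.761 (1.16 to 3.39, log2FC -5.01) and PIT 1.11 ± 0.347 (0.511 to 1.54, log2FC -5.90). In PON the summed counts were only 10 to 29 in an animal. MO, at 59.3 ± 53.0 CPM, did not pass (log2FC -0.22, FDR 0.51) and spanned 1.63 to 136 CPM, the widest relative range of the gene in any group.

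GAD1, the main enzyme of GABA synthesis in most neurons, was highest in the olfactory bulb. OB held 967 ± 97.7 CPM (808 to 1104) and the cortex 451 ± 22.8 CPM (430 to 484), a log2FC of 1.10 (SE 0.25, FDR 5.6e-05), which was the gene's only call above the cortex. STR, where SLC32A1 peaked, held 366 ± 38.8 CPM of GAD1 (311 to 424), below every cortical sum, and did not pass (log2FC -0.30, FDR 0.31). CB (427 ± 69.3 CPM), GP (365 ± 97.0), HTHA (350 ± 76.2), AMY (318 ± 31.7) and VTA (318 ± 102) did not pass, and PA (279 ± 36.2 CPM, log2FC -0.69, FDR 0.020) passed the FDR at less than 2-fold.

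GAD1 was called lower in 7 groups. HIP (223 ± 18.6 CPM, log2FC -1.02), THA (220 ± 74.3 CPM, log2FC -1.05) and SN (183 ± 42.3 CPM, log2FC -1.29) were near the 2-fold line. MO (94.2 ± 71.7 CPM, log2FC -2.31), PIT (45.5 ± 8.46 CPM, log2FC -3.32), CC (25.8 ± 11.4 CPM, log2FC -4.13) and PON (21.3 ± 9.36 CPM, log2FC -4.42) were far below it. PIT kept a measurable GAD1 level in all 8 animals (36.7 to 55.8 CPM, 334 counts or more each).

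GAD2, the decarboxylase tied to synaptic terminals, was highest in the striatum. STR held 948 ± 113 CPM (797 to 1121, log2FC 1.63, FDR 4.1e-06), OB 646 ± 84.3 (547 to 787, log2FC 1.08, FDR 0.0014) and the cortex 303 ± 17.6 (272 to 325), with no overlap between either and the cortex. The OB calls of GAD1 and GAD2 fell just under 2-fold with the looser count filter (log2FC 0.99 and 0.97). HTHA (441 ± 131 CPM), VTA (330 ± 109), GP (330 ± 92.0), CB (204 ± 32.6), PA (202 ± 31.1) and AMY (193 ± 23.6) did not pass. THA (184 ± 78.8 CPM, log2FC -0.75, FDR 0.031) and SN (164 ± 46.4 CPM, log2FC -0.91, FDR 0.0070) passed the FDR at less than 2-fold.

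GAD2 was called lower in HIP (128.3 ± 13.6 CPM, log2FC -1.24), MO (117 ± 97.9 CPM, log2FC -1.43), CC (19.2 ± 6.90 CPM, log2FC -3.95), PON (11.6 ± 6.49 CPM, log2FC -4.71) and PIT (7.73 ± 7.96 CPM, log2FC -5.37). In PIT the animals split, with Rhesus 6 at 21.6 CPM, Rhesus 7 at 19.5 and the other 6 between 2.35 and 4.60. In GP, Rhesus 2 was lowest in all 3 GABA genes, at 21.2 CPM of SLC32A1, 175 of GAD1 and 136 of GAD2. The same library held 73357 CPM of MBP against 26536 to 38261 in the other 7 animals. The part of myelin content in this low value was not tested.

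**Figure D2:**
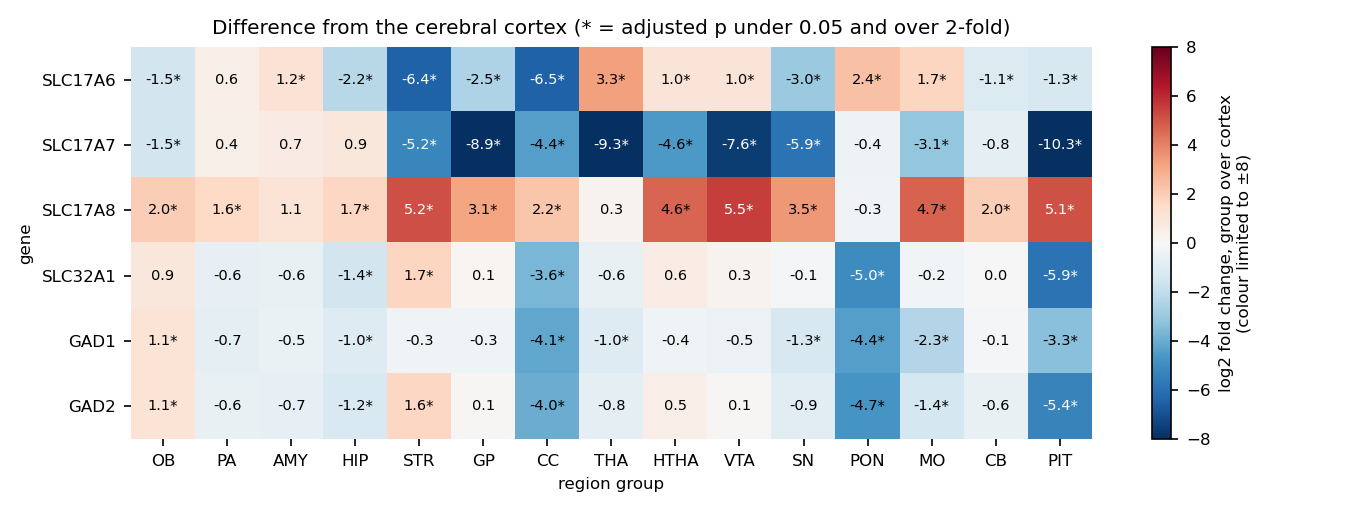
Log2 fold change of each gene (rows) in each region group (columns) against the cerebral cortex, with the value in each cell and an asterisk on the 56 of 90 pairs called at an FDR under 0.05 and over 2-fold. Red is higher than the cortex and blue lower, so SLC17A6 runs from 3.25 in THA to -6.47 in CC while SLC17A8 has no blue cell that was called.

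The order of the 16 group means was examined pair by pair. For each member the neighbours in the order were compared within animals by a two-sided exact sign-flip permutation test, which with 8 animals cannot give a p below 0.0078. With 12 pairs at that floor the smallest adjusted p over the 90 neighbour pairs was 0.059, so no pair could pass after adjustment, and the test says nothing of how firm the order is. The order also came from the same values that were tested, so the unadjusted p are given as a description. Of the 90 pairs, 29 had an unadjusted sign-flip p under 0.05 and 12 reached the floor of 0.0078. Among these 12 were STR over OB for SLC32A1 (by 0.87 on the log2 scale) and for GAD2 (by 0.56), OB over the cortex for GAD1 (by 1.09), and the cortex over PON for SLC17A7 (by 0.43). For SLC17A8 no neighbour pair reached an unadjusted sign-flip p under 0.05. The order of every member, that of SLC17A8 from VTA to PON included, is an order of means only. THA and PON, the top pair of SLC17A6, and HIP and AMY, the top pair of SLC17A7, were not among the 12.

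Ratios between members within a library hardly depend on how the library was scaled, and they show how the balance between members moved. A pseudocount of 1 CPM was added to each level. The log2 ratio of SLC17A6 to SLC17A7 averaged -3.20 ± 0.34 in the cortex. It averaged 8.45 ± 0.69 in THA, a difference of 11.65, and the 8 thalamic values ran from 7.03 to 9.11. It was also above the cortex in VTA (difference 8.33), HTHA (7.98), PIT (7.53), GP (5.67), MO (5.00), SN (4.05), PON (2.75) and AMY (0.49), and below it in HIP (-3.10). These 10 differences had the same direction in 8 of 8 animals and an exact sign-flip adjusted p of 0.012 over 15 groups. The cortical sub-regions themselves ran from -6.67 in the anterior cingulate gyrus to -1.36 in the posterior superior occipital gyrus. The ratios of HIP (-6.30) and AMY (-2.70) lay inside that span. OB (difference 0.03 ± 0.25), PA (0.08 ± 0.38), CB (-0.36 ± 0.48), CC (-0.85 ± 1.28) and STR did not pass.

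Between these ends, PON stood in the middle. Its log2 ratio of -0.45 ± 0.23 (from -0.79 to -0.05) had the smallest SD of the 16 groups. In HTHA the SD of 2.70 came from Rhesus 6 at -1.60, and without that library the ratio averaged 5.69 ± 0.85. In STR, where both genes were near the floor, the difference from the cortex was 0.78 ± 1.63 (adjusted p 0.25), and 1.66 ± 1.11 (adjusted p 0.021) without the 2 striatal libraries that stand apart.

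The ratio of GAD1 to GAD2 moved far less than that of the glutamate transporters. Its log2 value averaged 0.57 ± 0.11 in the cortex and -1.37 ± 0.28 in STR, a difference of -1.94 in 8 of 8 animals (exact sign-flip adjusted p 0.015), so the ratio was tilted towards GAD2 in the striatum. PIT was tilted the other way (difference 2.24 ± 1.18), with the 2 animals of higher GAD2 closest to the cortex. HTHA (-0.87), MO (-0.70), VTA (-0.60), GP (-0.42), SN (-0.39), CC (-0.20) and PA (-0.10) lay below the cortex, and CB (0.49) and HIP (0.22) above it. In all, 11 of 15 groups passed with adjusted p between 0.015 and 0.043, and OB, AMY, THA and PON did not. PA and CC no longer passed when the animals were not paired (adjusted p 0.16 and 0.059), and THA and PON then did (0.040 and 0.029).

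The ratio of SLC32A1 to the sum of GAD1 and GAD2 stood furthest above the cortex in the medulla. Glycine neurons are known there, and their part in this ratio was not tested. The ratio averaged -3.50 ± 0.12 in the cortex and -2.0 ± 0.38 in MO, a difference of 1.5 in 8 of 8 animals (exact sign-flip adjusted p 0.017). SN (difference 0.98), STR (0.92), CC (0.61), VTA (0.56), HTHA (0.52), THA (0.30) and CB (0.28) also lay above the cortex, and OB (-0.24), HIP (-0.31) and PIT (-1.19) below it. That made 11 of 15 groups, of which OB, CC, THA and CB no longer passed at a pseudocount of 0.1 CPM (adjusted p 0.053 each). PON, where all 3 GABA genes were scarce, did not pass (difference 0.12 ± 0.44, adjusted p 0.55). The MO difference without Rhesus 6 was 1.57 ± 0.43.

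**Figure D3:**
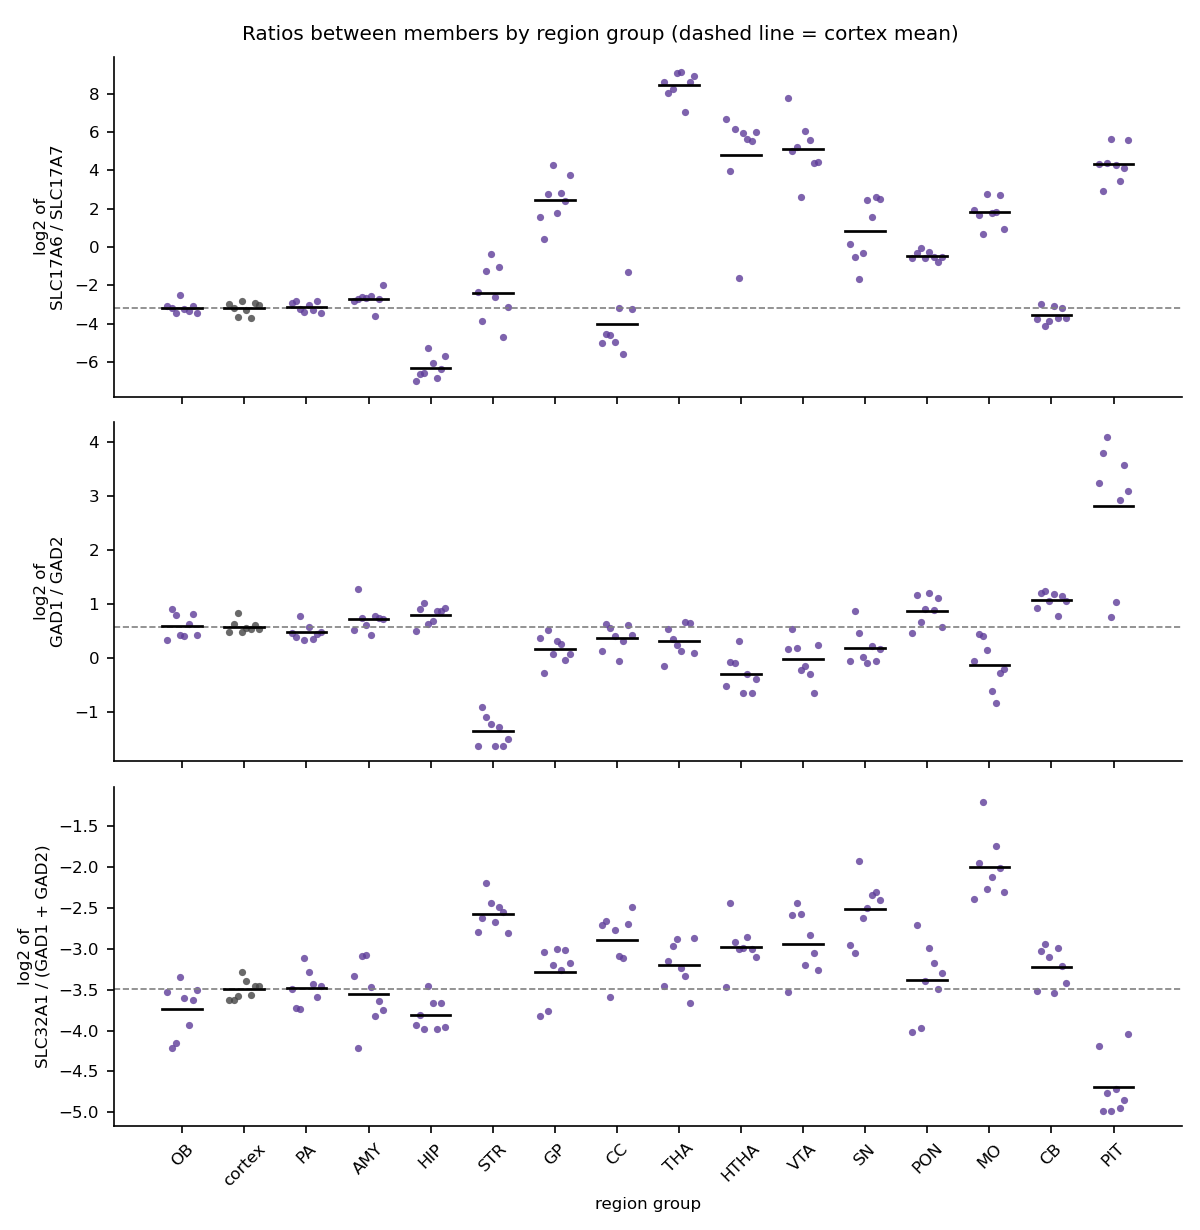
Log2 ratio of SLC17A6 to SLC17A7 (top), GAD1 to GAD2 (middle) and SLC32A1 to GAD1 plus GAD2 (bottom) in 16 region groups, with a point for each animal, a bar at the mean and a dashed line at the cortex mean. The top ratio spans -6.30 in HIP to 8.45 in THA, while the GAD ratio leaves the dashed line mainly in STR (-1.37) and PIT (2.81).

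Because bulk levels move with how much of the RNA is neuronal, each member was also set against 10 pan-neuronal markers. The markers averaged 9.59 on the log2(CPM + 1) scale in the cortex, 9.88 in PON, 8.40 in STR, 7.67 in GP, 5.71 in PIT and 5.22 in CC. After subtraction of the marker mean, 85 of 90 differences from the cortex passed the exact sign-flip permutation test (adjusted over 90). The share of all genes that would pass in this view was not computed, so the count cannot be read as particular to the members. The directions therefore say more than the count.

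Several differences grew or turned in this view. SLC17A6 in THA stood 3.47 ± 0.37 above the cortex, and SLC17A7 in HIP 1.5 ± 0.18, each in 8 of 8 animals with an adjusted p of 0.0098. In GP the 3 GABA genes, whose plain levels did not pass against the cortex, stood 1.96 (SLC32A1), 1.56 (GAD1) and 1.97 (GAD2) above it. GAD1 in STR, lower than the cortex as a level by 0.30, stood 0.88 ± 0.17 above it. Counting also differences that did not pass, the sign turned in 7 groups for GAD1, in 2 for SLC32A1 and in 1 each for GAD2 and SLC17A6, and the SLC17A6 case was PIT, at -1.40 as a level and 2.48 against the markers.

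Others kept their direction. The GABA genes of PON lay at -4.76 (SLC32A1), -4.73 (GAD1) and -5.02 (GAD2) relative to the cortex, beside markers that averaged slightly higher in PON than in the cortex. SLC17A7 of THA, VTA, SN, GP and HTHA stayed between -6.34 and -8.18. In CC, SLC17A7 (-0.30 ± 0.72) and GAD1 (0.18 ± 0.29) did not pass. SLC32A1 of MO (-0.14 ± 1.55) and SN (0.35 ± 0.41) and GAD1 of VTA (0.17 ± 0.46) were the other 3 that did not pass. SLC17A8 passed in all 15 groups, but in THA its own level differed by 0.03 and the rest of the 0.29 came from the markers. In CC, where the markers averaged far lower, its own mean was 0.78 on the log2(CPM + 1) scale against 0.21 in the cortex. At a pseudocount of 0.1 CPM its sign-flip adjusted p was 0.17 in AMY, 0.25 in THA and 0.14 in PON. These differences then no longer passed, nor did that of SLC32A1 in THA (0.051).

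Within the cerebral cortex, SLC17A6 was the member that varied most among the 5 that could be tested. Its mean ran from 10.0 ± 2.81 CPM in the anterior cingulate gyrus (7.08 to 15.1) to 191 ± 26.2 CPM in the posterior superior occipital gyrus (160 to 238), a 19-fold range over 31 sub-regions. SLC17A7 ran the other way over a narrower range, from 491 ± 52.9 CPM in the posterior superior occipital gyrus (413 to 555) to 1109 ± 202 CPM in the anterior cingulate gyrus (936 to 1551), 2.26-fold. The 3 GABA genes stayed within 1.36-fold (SLC32A1), 1.25-fold (GAD1) and 1.28-fold (GAD2). All 5 passed the F test over cortical sub-regions, at an FDR of 1.0e-108 for SLC17A6 and 0.020 for SLC32A1, where 75.0% of the 15981 genes tested passed. SLC17A8 was filtered out as too low, with its highest cortical means in the temporal polar gyrus (1.06 CPM) and insula (0.699 CPM).

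A step in SLC17A6 lay at the central sulcus. The superior and inferior precentral gyri, the motor side, held 26.2 ± 11.6 and 36.5 ± 12.5 CPM. The superior and inferior postcentral gyri, the somatosensory side, held 125 ± 25.2 and 130 ± 15.97 CPM, and the highest precentral library (58.1 CPM) lay below the lowest postcentral one (98.3 CPM). SLC17A7 in the same 4 gyri was 792, 817, 706 and 733 CPM, with overlapping animals. The gyri were not compared by a test of their own. Over the 31 sub-region means the correlation of SLC17A6 with SLC17A7 was -0.85, and within single animals it ran from -0.86 to -0.60. The points share their libraries and it is given as a description.

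**Figure D4:**
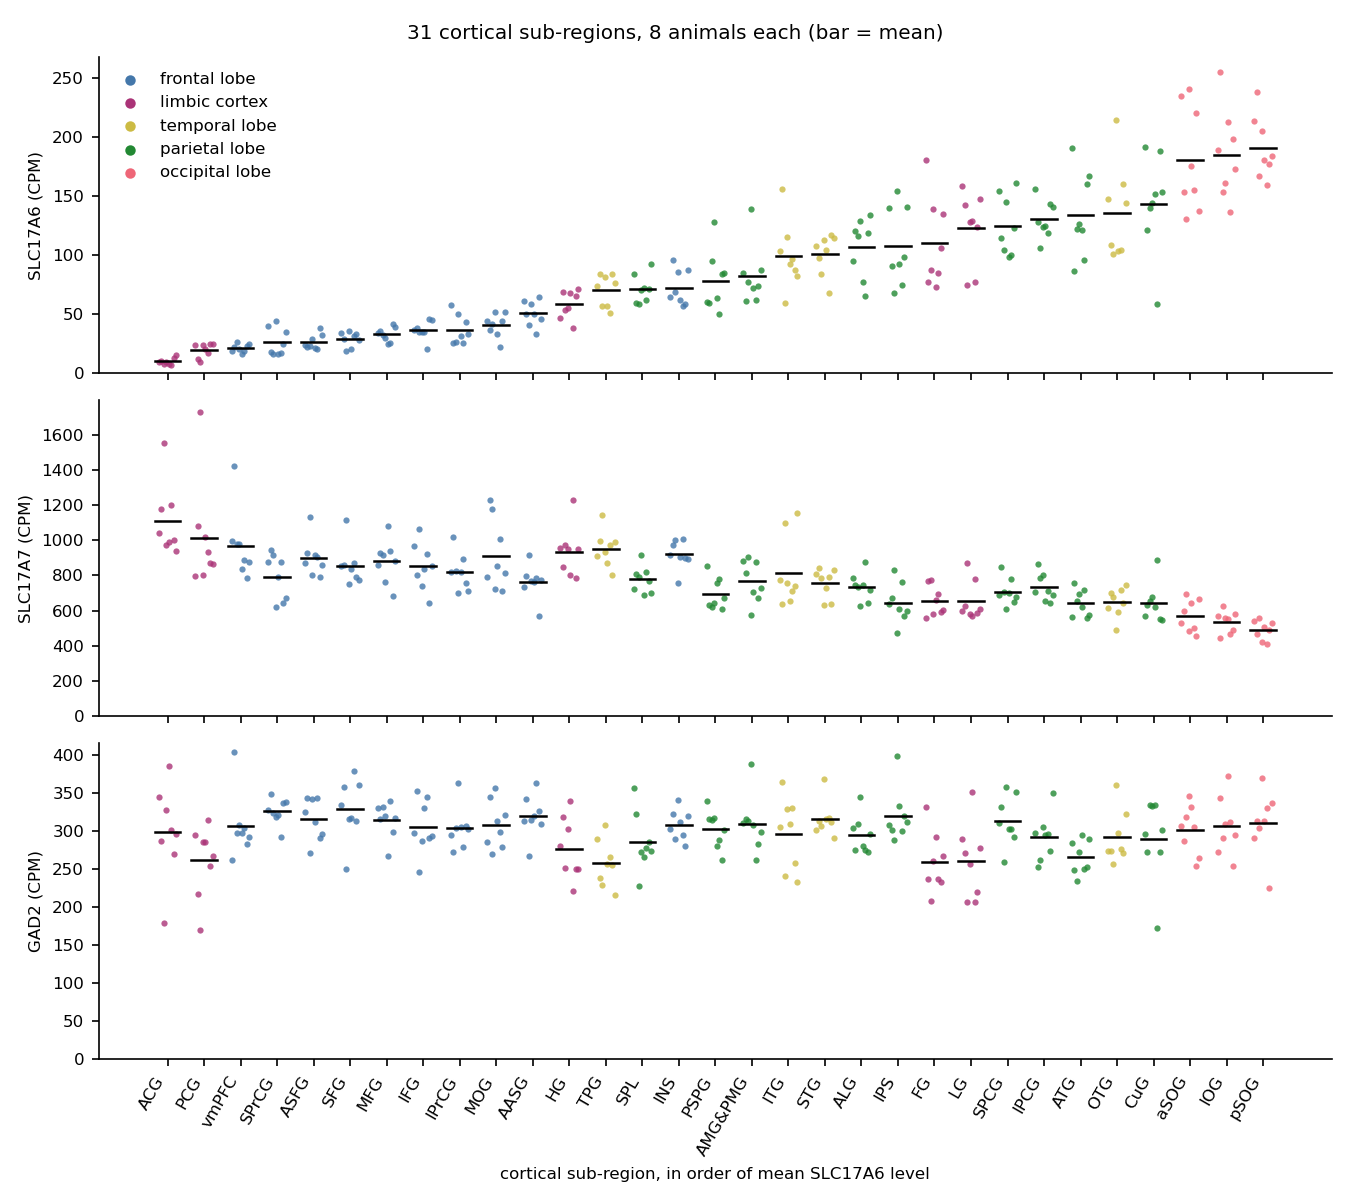
SLC17A6, SLC17A7 and GAD2 (CPM) in 31 cortical sub-regions, ordered by mean SLC17A6 and coloured by lobe, with a point for each of the 8 animals and a bar at the mean. SLC17A6 climbs from 10.0 CPM in the anterior cingulate gyrus to 191 CPM in the posterior superior occipital gyrus, SLC17A7 declines from 1109 to 491 CPM between the same ends, and GAD2 stays between 257 and 328 CPM.

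Lobe levels are means of the sub-region CPM within each animal, and the frontal lobe in the study's grouping includes the insula. SLC17A6 held 37.2 ± 6.19 CPM in the frontal lobe (27.1 to 43.98) and 64.1 ± 13.98 in the limbic cortex. It held 101 ± 18.7 CPM in the temporal lobe, 109 ± 20.1 in the parietal lobe and 185 ± 26.7 in the occipital lobe (150 to 216). On counts summed by lobe within each animal, each lobe differed from the mean of the other 4 (edgeR, largest FDR 7.9e-05). A lobe was called at an FDR under 0.05 alone. The log2FC of SLC17A6 was -1.53 frontal, -0.55 limbic, 0.30 temporal, 0.39 parietal and 1.39 occipital. The limbic cortex was mixed, from 10.0 CPM of SLC17A6 in the anterior cingulate gyrus to 123 in the lingual gyrus. Between the same gyri SLC17A7 ran from 1109 to 652 CPM. SLC17A7 was higher in the frontal (0.29) and limbic (0.26) cortex and lower in the occipital lobe (-0.58). A temporal difference of 0.11 was at the margin (FDR 0.046), and the parietal one did not pass (-0.08, FDR 0.27).

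Of the other members, SLC17A8 differed by more between lobes than the GABA genes. It was higher in the temporal (log2FC 1.66) and frontal (0.62) lobes and lower in the occipital (-1.17) and parietal (-1.08) lobes, at lobe means of 0.0681 to 0.353 CPM. Both higher lobes were uneven. The temporal lobe ran from 0.0974 CPM in the superior temporal gyrus to 1.06 in the temporal polar gyrus. The frontal lobe ran from 0.0626 CPM in the posterior superior frontal gyrus to 0.699 in the insula. The lobe differences without the temporal polar gyrus and insula were not tested. GAD2 was higher in the frontal lobe (0.11) and lower in the limbic cortex (-0.17), GAD1 lower in the limbic cortex (-0.10), and SLC32A1 passed in no lobe. Members called numbered 4 of 6 in the frontal lobe and 4 in the limbic cortex, against 44% and 15.9% of 17478 genes. They numbered 3 each in the occipital and temporal lobes, against 56.3% and 25.7%, and 2 in the parietal lobe, against 9.64%. Of the 16 calls, 8 stood without the animal as a block, namely SLC17A6 and SLC17A7 in the frontal, limbic and occipital cortex and SLC17A8 in the occipital and temporal lobes.

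Among the 3 parts of the hippocampus, the dentate gyrus stood apart from CA1 and CA3. Its principal cells are granule cells, while CA1 and CA3 hold pyramidal neurons. SLC17A6 held 25.9 ± 10.8 CPM in DG (8.59 to 40.3), 16.2 ± 6.27 in CA1 (9.37 to 25.5) and 12.9 ± 4.95 in CA3 (6.18 to 19.9), with overlapping animals. The difference of CA3 from DG was -0.99 (FDR 0.00058), just under 2-fold, and that of CA1 from DG -0.68 (FDR 0.0070). SLC32A1 went the other way, with 16.7 ± 4.09 CPM in DG (12.05 to 22.1), 29.5 ± 5.79 in CA1 and 25.6 ± 4.96 in CA3 (log2FC 0.84 and 0.62 against DG).

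GAD2 moved like SLC32A1, at 89.4 ± 24.8 CPM in DG, 155 ± 19.6 in CA1 and 133 ± 19.8 in CA3 (log2FC 0.82 and 0.59 against DG, FDR of 0.0010 or less). GAD1 did not, at 226 ± 27.4, 233 ± 47.4 and 193 ± 28.2 CPM (FDR 0.88 and 0.091). The log2 ratio of GAD1 to GAD2 was therefore 1.36 ± 0.47 in DG against 0.57 ± 0.19 in CA1 and 0.53 ± 0.26 in CA3, given as a description. No member was called at over 2-fold here, and 3.53% of 14796 genes were for CA1 against DG, 3.02% for CA3 against DG and 0.0203% for CA3 against CA1, where no member passed the FDR either (smallest FDR 0.56, GAD1 p 0.022). SLC17A7 averaged 1363 CPM in DG, 1500 in CA1 and 1549 in CA3, and did not pass. SLC17A8 was too low for the test.

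In the striatum, the accumbens nucleus differed from the caudate nucleus and putamen in both decarboxylases, in opposite directions and at less than 2-fold. GAD1 held 463 ± 67.7 CPM in ACb (380 to 553), 331 ± 41.9 in CN (270 to 389) and 287 ± 50.5 in PUT (228 to 365), a log2FC of -0.50 for CN and -0.71 for PUT (FDR 0.00016 and 6.8e-07). GAD2 held 808 ± 114 CPM in ACb, 994 ± 89.4 in CN and 1019 ± 170 in PUT, a log2FC of 0.29 and 0.32 (FDR 0.0012 and 0.00021). The log2 ratio of GAD1 to GAD2 ran from -0.80 ± 0.26 in ACb to -1.59 ± 0.26 in CN and -1.83 ± 0.39 in PUT. SLC32A1 stayed level, at 212, 231 and 211 CPM. SLC17A8 held 4.71 ± 1.75 CPM in ACb, 4.83 ± 2.32 in CN and 7.40 ± 2.21 in PUT, and PUT passed against ACb at less than 2-fold (log2FC 0.64, FDR 0.043).

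The only member called at over 2-fold within a group was SLC17A7, lower in CN than in ACb by a log2FC of -4.16 (SE 1.22, FDR 0.013). The ACb libraries were very uneven. They held 9.93 CPM in Rhesus 2, 3.03 in Rhesus 3, 1.18 in Rhesus 4, 1.16 in Rhesus 6, 28.3 in Rhesus 7, 2.29 in Rhesus 8, 232 in Rhesus 10 and 59.6 in Rhesus 11, and the 8 CN libraries 0.171 to 2.00 CPM. PUT held 112 CPM in Rhesus 3 and 0.223 to 4.02 in the others. Without the ACb of Rhesus 10 and the PUT of Rhesus 3, whose cortical markers stand apart, the CN difference was -2.39 (FDR 0.014) and the PUT difference of -2.21 was called too (FDR 0.018). Of the ACb libraries that remained, Rhesus 7 and Rhesus 11, highest in SLC17A7, also held more of the cortical markers, with NEUROD6 at 3.66 and 7.83 CPM and TBR1 at 2.91 and 2.22, against 0 to 1.38 and 0.101 to 0.377 in the other 5. The part of cortical tissue in the ACb difference was not tested. Over all genes, 3.96% of 14827 were called for CN against ACb, 8.75% for PUT against ACb and 4.82% for PUT against CN. SLC17A6, at 0 to 5.87 CPM in these 3 nuclei, was too low for the test.

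Between the cerebellar cortex and the vermis no member was called, as were 0.225% of 14250 genes. GAD2 had the smallest p (0.037, FDR 0.34), at 181 ± 42.8 CPM in CBC and 210 ± 19.4 in CBV. SLC17A7, SLC17A6, SLC32A1 and GAD1 differed by log2FC of -0.10, 0.28, -0.08 and 0.16 and did not pass. SLC17A8 was too low for the test here as well.

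The genes that recycle glutamate and GABA around the members followed other maps. Of 19 listed genes for uptake, glutamine supply and breakdown, 17 had a row by symbol and 16 passed the filter. SLC1A2 (EAAT2), the main astrocytic glutamate uptake carrier, was called lower than the cortex in 11 of 15 groups and higher in none. Its log2FC was -2.85 in PON, -2.72 in CB, -2.45 in VTA and -8.33 in PIT. SLC1A3 (EAAT1) was called lower in 5 groups and higher in none, with -2.79 in PON and -6.90 in PIT. SLC1A6 (EAAT4), known from Purkinje cells, was called higher in CB (log2FC 3.45) and lower in 7 groups. SLC6A11 (GAT3), an astrocytic GABA carrier, was called higher in 7 groups and lower in 3, with 2.70 in SN, 2.41 in GP, 2.23 in THA and 1.77 in HTHA against -2.82 in CC and -1.80 in CB.

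The glutamine carriers SLC38A1 and SLC38A2 were lower in AMY (-1.08 and -1.31) and HIP (-1.35 and -1.23). By group, the list had 10 lower in PIT and 8 lower with 1 higher in CC, where 44.7% and 44.2% of all genes were called, so that these counts of 16 lay not far from the background. VTA had 3 higher and 4 lower, CB 2 and 4, GP 2 and 3, OB 2 and 3, SN 2 and 2, THA 2 and 1, MO 1 and 3, and HTHA 1 and 2. PON had 4 lower, AMY and HIP 2 lower each, STR 1 lower and PA none, to be read against the shares of all genes given above for the same groups (28.3% in VTA, 25.7% in CB and 8.92% in PA). The median log2FC of the list was -1.71 in PIT and -0.99 in CC, beside medians over all genes of 0.03 and -0.02, and 0.23 in THA beside -0.02.

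Over the lobes, the recycling list had 12 of 16 genes called in the occipital lobe, 6 higher and 6 lower, 8 in the frontal lobe, 5 in the limbic cortex, 5 in the temporal lobe and 1 in the parietal lobe. The shares of all genes were 56.3% in the occipital, 44% in the frontal, 15.9% in the limbic, 25.7% in the temporal and 9.64% in the parietal part. The frontal, temporal and parietal counts lay near these shares, and the occipital and limbic counts above them. That excess was not tested, and counts of 16 genes are small. SLC38A2 (log2FC 0.57) and SLC6A11 (0.55) were higher and SLC1A6 lower (-0.63) in the occipital lobe, all smaller than the 1.39 of SLC17A6. Within the striatum, SLC38A2 and SLC1A2 were higher in CN than in ACb (log2FC 1.27 and 1.11), 2 of 16 genes beside 3.96% of all genes.

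The genes whose levels ran most like each member were found by Pearson's r over the 51 sub-region means, among 13212 genes. The points share animals and libraries, and the values are a description. For SLC17A7 they were NEUROD2 (r = 0.96), a transcription factor of cortical excitatory neurons, DOC2A (0.91) and MFSD4A (0.90). For SLC17A8 they were RGS9 (0.86), CHAT (0.86), the enzyme of acetylcholine synthesis, and DRD2 (0.85), the D2 dopamine receptor, all known from the striatum. For SLC32A1 they were GAD2 (0.98), MAPK4 (0.91) and KCNIP1 (0.84), for GAD2 SLC32A1 (0.98), MAPK4 (0.91) and GAD1 (0.88), and for GAD1 CABLES1 (0.91), GAD2 (0.88) and PITPNM3 (0.85). SLC17A6 had the weakest likeness, with MAGI3 (0.80), CDC25A (0.78) and MTHFD1L (0.78). Over the 16 groups, SLC32A1 went with GAD2 at r = 0.99 and with GAD1 at 0.88.

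Age stage and sex were compared within each region group, 4 animals against 4, with the other factor as a covariate and a call at an FDR under 0.1 and over 2-fold. No member was called in any of 88 pairs for age by edgeR (8 at an unadjusted p under 0.05) or in 88 for sex (5 at an unadjusted p under 0.05). The smallest FDR were 0.30 and 0.22. Over all genes 0.0164% of pairs were called for age and 0.105% for sex. DESeq2 called 3 for age and 2 for sex, and it called more over all genes as well, 802 of 236202 pairs for age and 999 of 241845 for sex, larger shares than those of edgeR. The 16 recycling genes had no call in 254 pairs for age or for sex by edgeR.

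**Figure D5:**
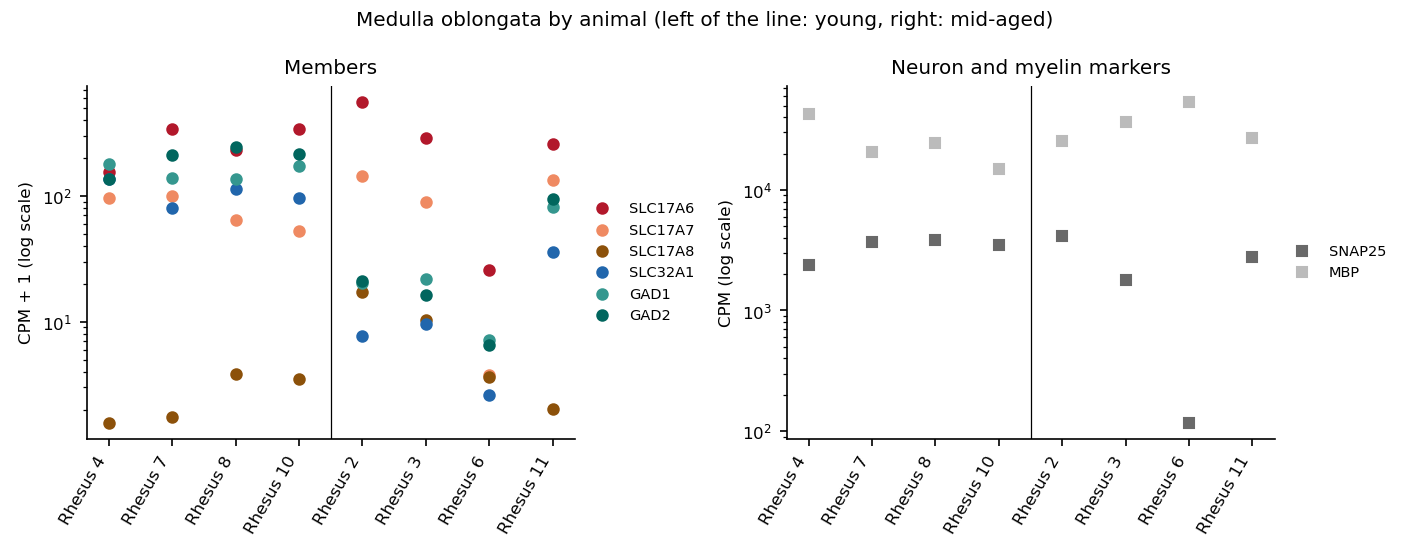
The 6 genes (left, CPM + 1) and the neuronal gene SNAP25 and myelin gene MBP (right, CPM) in the medulla oblongata of each animal, on log axes, with young animals left of the line and mid-aged animals right. SLC32A1, GAD1 and GAD2 lie lower in all 4 mid-aged animals than in all 4 young ones, and Rhesus 6, at 24.9 CPM of SLC17A6, is also the animal with 116 CPM of SNAP25.

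The medulla held the 3 DESeq2 calls for age, all in GABA genes. SLC32A1 was 136 CPM in Rhesus 4, 79.2 in Rhesus 7, 112 in Rhesus 8 and 95.1 in Rhesus 10, the young animals, and 6.67 in Rhesus 2, 8.64 in Rhesus 3, 1.63 in Rhesus 6 and 34.7 in Rhesus 11, the mid-aged ones. GAD1 was 135 to 179 CPM in the young and 6.19 to 81.2 in the mid-aged animals, and GAD2 was 137 to 243 against 5.54 to 94.3. The groups did not overlap in any of the 3 genes. The edgeR log2FC was -3.15 for SLC32A1 (SE 0.73), -2.39 for GAD1 (SE 0.62) and -2.75 for GAD2 (SE 0.77), each at an FDR of 0.44, and the DESeq2 adjusted p was 0.00040 for SLC32A1, 0.0050 for GAD1 and 0.0050 for GAD2.

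The glutamate transporters of the same libraries overlapped between the age groups. SLC17A6 averaged 283 ± 217 CPM in the mid-aged and 265 ± 89.6 in the young animals (log2FC -0.12), SLC17A7 had a log2FC of 0.21 and SLC17A8 one of 1.56 (FDR 0.50). SNAP25 in the mid-aged animals was 4132 CPM in Rhesus 2, 1775 in Rhesus 3, 116 in Rhesus 6 and 2771 in Rhesus 11, against 2405 to 3833 in the young. MBP was 25352 to 53460 CPM in the mid-aged and 15020 to 42963 in the young animals. Without Rhesus 6 edgeR called none of the 3, and without Rhesus 11 all 3 genes were called (FDR 0.062 for GAD1, 0.047 for GAD2 and 0.054 for SLC32A1). In Rhesus 6 the neuronal marker was low together with the GABA genes, and the part of tissue content in the age differences was not tested. Of 14734 genes with a mean of 1 CPM or more in MO, 4.02% lay lower there in every mid-aged than in every young animal.

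Elsewhere the groups of 4 seldom parted. Of 96 pairs of member and group, the age groups did not overlap in 5 and the sexes in 3. Over all genes, 3.86% and 1.98% of pairs with a mean of 1 CPM or more did not overlap. The 96 pairs were not held to that level, and SLC17A8 in PA lay below it. The other age pairs were GAD2 in PA, at 224 CPM in the mid-aged and 179 in the young animals, and SLC17A8 in PA, at 0.766 and 0.273 CPM. By sex they were SLC17A6 in GP, at 24.6 CPM in females and 8.11 in males, SLC17A7 in VTA, at 7.95 and 1.85, and SLC17A7 in AMY, at 1150 and 1345.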

How the data were processed

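Total RNA from 8 monkeys and 51 dissected sub-regions was depleted of rRNA and made into libraries with a kit that marks strand. The authors deposited raw counts for 30807 genes, made per the labels and the study's methods with Trim Galore 0.4.4 (poor samples), HISAT2 2.0.5 on Mmul_8.0.1 and HTSeq 0.6.1 on Ensembl release 91. How HTSeq treated strand and overlapping genes is not given in the sources used here, so reads of overlapping genes may be shared. Counts of a region group were summed within an animal and scaled by TMM. Genes were filtered with filterByExpr and tested with edgeR's quasi-likelihood test (edgeR 4.0.16, R 4.3.3, Benjamini-Hochberg adjusted) over all genes, with the animal as a block. Single values were compared within animals by exact two-sided sign-flip permutation tests over all sign patterns (numpy 2.4.6). DESeq2 1.42.0, other scalings, filters and left-out animals were alternatives.

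Libraries held 7784678 to 31083490 counts. Counting error alone is small at this depth except for SLC17A8 and for members near 0. The labels name the animal of each sample, and samples of the same animal deviated together (median correlation of deviations 0.449, and -0.062 between animals), so animals pair the regions. The 6 members, the recycling and marker lists and the comparisons were chosen with earlier results of these data known. All 6 members are named, with recycling genes called and of large change and the 3 genes most like each member. On simulated counts, 88.0% of 2-fold and 100% of 4-fold changes passed the FDR alone for the thalamus contrast (15982 genes). For age in the medulla the shares were 28.4% and 97.9% (14958 genes). The counts were drawn with the same fixed spread for every gene and no difference between animals. The shares do not hold where animals spread more, as the mid-aged animals did for the GABA genes of MO. The midbrain samples, the chromatin libraries and the assembled transcripts were not analysed here. No table gave gene lengths or sequence of the build used. Some genes of the recycling and marker lists are counted but not reported here by name.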

Additional observations from a re-analysis of the deposited data

Results flagged for a closer look

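In 14 of the 96 sets of 8 animals (6 genes in 16 region groups), the highest or lowest animal stood off from the others by more than Dixon's 95% limit for 8 values. Chance alone flags about 1 set in 20. For SLC17A6 these were a low thalamus of 343 CPM in Rhesus 8 (others 746 to 1045) and a high VTA of 391 CPM in Rhesus 2 (others 102 to 198). For SLC17A7 they were THA at 3.00 CPM in Rhesus 3 (others 0.409 to 1.62), HTHA at 479 in Rhesus 6 (others 0.965 to 5.17), VTA at 16.2 in Rhesus 6 (others 0.821 to 7.40), SN at 96.5 in Rhesus 4 (others 0 to 36.6) and PIT at 1.39 in Rhesus 3 (others 0.4 to 0.769). SLC17A8 stood off in GP at 6.57 CPM in Rhesus 6 (others 0.0933 to 2.10) and in HTHA at 21.7 in Rhesus 11 (others 0.300 to 3.96). SLC32A1 did so in CC at 10.9 CPM in Rhesus 3 (others 2.46 to 6.14) and in HTHA at 135 in Rhesus 11 (others 81.8 to 103). GAD1 and GAD2 did so together in PON of Rhesus 4, at 41.8 CPM (others 11.3 to 24.3) and 26.1 CPM (others 4.48 to 14.2), and GAD2 in GP of Rhesus 2 at 136 CPM (others 303 to 449).

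For 2 genes the groups of 4 animals parted in opposite directions in 2 regions, and the difference between the regions was not tested. GAD2 was 1.25 times as high in mid-aged as in young animals in PA and 0.168 times in MO. SLC17A7 was 4.29 times as high in females as in males in VTA, where its levels were low, and 0.855 times in AMY.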

How the results depend on the processing

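Calls against the cortex numbered 56, and 52 to 56 in each setting's own total under DESeq2, RLE scaling, a looser filter, no replicate block or without single libraries, and 34 at over 4-fold. The looser filter lost 5 of the calls (SLC17A6 in HTHA and VTA, SLC17A8 in PA, GAD1 and GAD2 in OB) and added GAD2 in SN. Without the libraries that stand apart, GAD1, GAD2 and SLC32A1 in AMY and GAD2 in CB newly passed the FDR at less than 2-fold. Their edgeR FDR were 0.047, 0.041, 0.034 and 0.033. In MO the log2FC without them was 1.84 for SLC17A6, -3.10 for SLC17A7 and 4.83 for SLC17A8. It was -0.05 for SLC32A1, -2.16 for GAD1 and -1.27 for GAD2. All 6 members passed over the 51 sub-regions throughout, and 4 to 6 over the cortical sub-regions. For the paired design, the animal served as the replicate block in the main tests. With no replicate block, lobe calls went from 16 to 8, calls within groups from 1 to 3 and cortical sub-region calls from 5 to 4. Calls within groups were 3 by DESeq2, 2 with RLE scaling, 5 with the looser filter and 2 without the libraries that stand apart. Age calls were 0, 3 by DESeq2 and 0 to 3 when an animal was left out (3 without Rhesus 11, 1 without Rhesus 7). Sex calls were 0, 2 by DESeq2 and 0 to 2 when an animal was left out (2 without Rhesus 7). The ratio of SLC32A1 to the decarboxylases passed in 7 groups rather than 11 at a pseudocount of 0.1 CPM.

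The signs that reversed were all of values that did not pass. SLC32A1 in CB (0.02) became -0.0082 by DESeq2, -0.0081 with RLE, -0.092 with the looser filter, and -0.029 both without the hypothalamus library of Rhesus 6 and without the libraries that stand apart. GAD2 in VTA became -0.019 with the looser filter. At a pseudocount of 0.1 CPM, the ratio of SLC17A6 to SLC17A7 in STR became -0.081 and that of SLC32A1 to the decarboxylases in PON -0.357. The cause was not tested. Depth limited SLC17A8, with 3 counts or fewer in 263 libraries.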
